A study of Mus musculus with 12 samples.

Results

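The genes described here encode enzymes that build purine and pyrimidine nucleotides from small precursors. They were listed by name: Ppat, Gart, Paics, Adsl, Atic and Impdh2 for purines, and Cad, Dhodh, Umps and Ctps for pyrimidines. All probe sets annotated with 1 of these symbols alone were taken, which gave 17 of 20380 single-symbol probe sets on a mouse Affymetrix array and 8 of 12393 genes. Atic and Impdh2 had no such probe set in the table used and were not analysed here. The samples were 12 tumours grown under the skin of Balb/c mice aged 6 weeks from C26 cells, a line of mouse colon carcinoma. Treatment was given on day 8 after the cells were injected, when tumours measured about 50 mm3, and tumours were removed 48 h later. The 3 groups of 4 mice received PBS (buffered saline, the control), free Dox (doxorubicin, an anthracycline that intercalates into DNA and poisons topoisomerase II) or CP-Dox (doxorubicin attached to a chimeric polypeptide carrier). No group received the carrier alone. The labels state no dose.

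De novo purine synthesis assembles the ring stepwise on ribose phosphate until inosine monophosphate is made, from which adenine and guanine nucleotides follow. The pyrimidine ring is built first, as orotate, and is then joined to ribose phosphate to give uridine monophosphate and later cytidine triphosphate. Dividing tumour cells draw on both routes for DNA and RNA, whereas resting cells rely more on salvage of preformed bases.

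Levels are log2 signals summarised by RMA, in which a difference of 1 is a doubling. A gene with several probe sets is given by its brightest one unless another is named. A change is a difference of log2 group means ± its standard error in a limma fit of all 12 arrays, with n = 4 tumours per group. Adjusted p values are Benjamini-Hochberg values over the 12393 genes of that fit, and "fell" and "rose" are used only for an adjusted p under 0.05. The PBS tumours serve both drug comparisons, which are therefore given side by side and not tested for likeness.

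The arrays were not equally alike within groups. CP-Dox tumour 2 had a mean correlation of 0.948 with the rest of its group, against 0.971 to 0.990 for the other 11 arrays in theirs. Relative to the PBS mean, 17 proliferation markers averaged -1.64 in CP-Dox tumour 2 and between -0.42 and -0.29 in the other 3 CP-Dox tumours. The average of 13 keratinocyte and skin markers was 2.72 and 4.07 in CP-Dox tumours 1 and 3 and between -0.13 and 0.06 in the other 10 tumours. Skeletal muscle markers ranged from -2.59 to 3.46 among the PBS tumours themselves. Of the markers of colon epithelium, Krt8 and Krt18 had PBS means of 10.31 and 8.20, while Vil1, Cldn7, Krt19 and Krt20 lay between 4.40 and 4.96. In bulk tumours, fewer cells of a type and less RNA per cell cannot be told apart.

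Seen as a group, the nucleotide synthesis genes were lower in the CP-Dox tumours and close to control in the free Dox tumours. Against PBS, all 8 log2 fold changes of CP-Dox were negative, with a median of -0.53, and Gart, Adsl and Dhodh fell. Those 3 genes kept 67.2%, 67.6% and 70.3% of the PBS signal. Over all genes, 3.23% fell, 2.35% rose and 5.58% changed either way in this comparison, the median log2 fold change was -0.04 and 55.9% of values were below 0. In the purine branch 2 of 4 measured genes fell and the median was -0.56. In the pyrimidine branch 1 of 4 fell and the median was -0.43. Without adjustment, 6 of the 8 genes were lower at p under 0.05, against 13.3% of all genes.

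**Figure D1:**
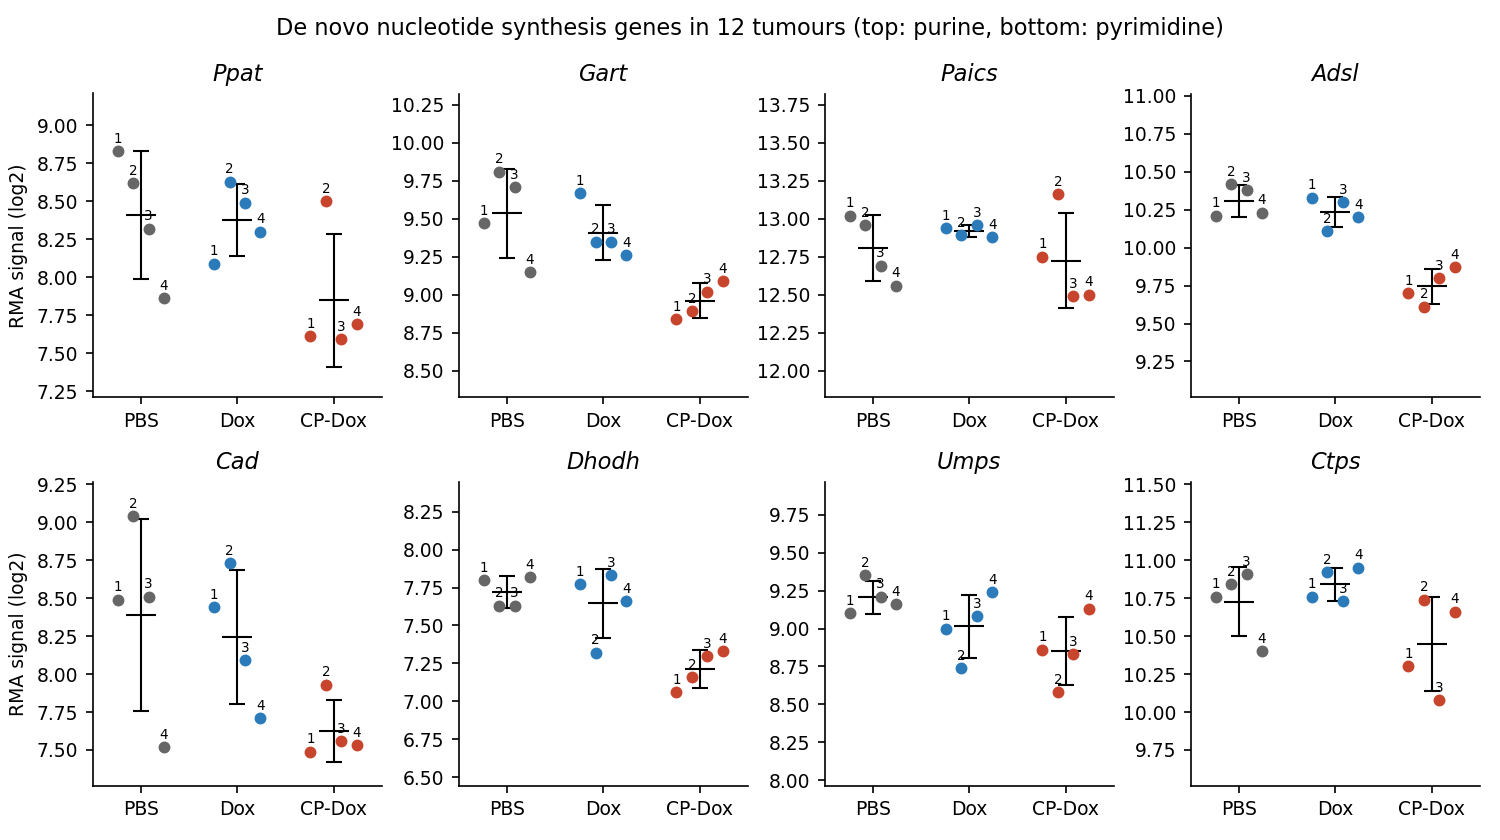
RMA signal (log2) of the 8 measured genes in each of 12 tumours, purine genes above and pyrimidine genes below. Points are tumours, and bars are the mean and SD of 4. The CP-Dox points of Gart, Adsl and Dhodh lie wholly below the PBS points, and the Ppat and Cad points of the PBS group are widely spread.

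Promoter sequences are shown for the purine genes that fell, Gart and Adsl, as the 250 bases before the annotated start on the strand of the gene, from RefSeq on build GRCm38.p6. Dhodh, the other gene that fell, had no entry. The letters searched on both strands were the E-box CACGTG, which Myc family proteins bind, the E2F letters TTTGGCGC and TTTCGCGC, and the amino acid response letters TGATGCAA, which Atf4 binds. A match would be in capitals, and neither stretch has one.
Gart, chr16:91646973-91647222, minus strand: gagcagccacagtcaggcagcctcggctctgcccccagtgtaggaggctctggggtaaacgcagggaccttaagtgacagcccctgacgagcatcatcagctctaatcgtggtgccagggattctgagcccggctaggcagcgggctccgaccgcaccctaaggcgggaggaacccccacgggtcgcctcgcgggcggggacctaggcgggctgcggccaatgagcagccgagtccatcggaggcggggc
Adsl, chr15:80948240-80948489, plus strand: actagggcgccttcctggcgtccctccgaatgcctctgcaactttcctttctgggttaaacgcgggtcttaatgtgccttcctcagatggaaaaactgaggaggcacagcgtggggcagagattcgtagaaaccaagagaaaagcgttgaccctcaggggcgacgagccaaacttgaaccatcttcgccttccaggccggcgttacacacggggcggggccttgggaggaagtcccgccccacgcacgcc
Among 300-base windows that reach 50 bases past the start, 9 of the 10 listed genes had at least 1 window, 10 windows in all. CACGTG was in those of 3 genes, against 8.09% of all genes with a window, and it is shown in capitals with 12 bases on each side.
Paics, -203 from the start: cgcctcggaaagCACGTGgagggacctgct
Atic, -7 from the start: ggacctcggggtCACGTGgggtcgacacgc
Impdh2, -110 from the start: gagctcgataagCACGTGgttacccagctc
The E2F and the amino acid response letters were in the windows of 0 of the 9 genes, against 0.929% and 1.03% of all genes. Of the 3 genes with CACGTG, Paics was the one measured, and it passed in none of the 3 comparisons. The 250 bases before the Paics start, which hold its CACGTG, overlap the annotated Ppat gene. The window of Ppat itself had no match. G and C made up 50% to 69.7% of the bases in the 10 windows, above the median of all promoters, 52.7%, in 9 of them, and each held 15 to 27 CG dinucleotides, against a median of 7.

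Gart makes a trifunctional enzyme that carries out several early steps of purine synthesis, one of them a formyl transfer from folate. Its signal was 9.47, 9.81, 9.71 and 9.15 in the PBS tumours, 9.67, 9.35, 9.35 and 9.26 after free Dox, and 8.84, 8.89, 9.02 and 9.09 after CP-Dox. All CP-Dox tumours lay below all tumours of both other groups, by a narrow margin from PBS tumour 4. Gart fell by 0.57 ± 0.14 against PBS in the limma fit (adjusted p = 0.0409). For free Dox the log2 fold change was -0.13, with a 95% interval from -0.44 to 0.19. Gart stayed past the threshold in 3 of 12 fits that each left out 1 tumour, those without PBS tumour 4, free Dox tumour 1 or CP-Dox tumour 2, with adjusted p values from 0.0146 to 0.119 over the 12. It also missed the threshold when only the PBS and CP-Dox arrays were fitted (adjusted p = 0.101) and with muscle markers as a covariate (adjusted p = 0.0567), each time at a log2 fold change of -0.57.

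Adsl, adenylosuccinate lyase, acts in the purine route on the way to inosine monophosphate and again in the step from there to adenosine monophosphate. The PBS tumours had 10.21, 10.42, 10.38 and 10.23, the free Dox tumours 10.33, 10.11, 10.30 and 10.20, and the CP-Dox tumours 9.70, 9.61, 9.80 and 9.87. PBS and free Dox values overlapped, and every CP-Dox value was lower than every other. The change from PBS was -0.57 ± 0.09 (limma, adjusted p = 0.00610). Of the 8 genes Adsl alone passed in all 12 fits without 1 tumour, with log2 fold changes from -0.61 to -0.52. Its log2 fold change of CP-Dox against free Dox, -0.49 ± 0.09, narrowly missed the threshold (limma, adjusted p = 0.0521).

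Ppat makes the amidotransferase that commits ribose phosphate to the purine route. The signal was 8.83, 8.62, 8.32 and 7.86 with PBS, 8.09, 8.63, 8.49 and 8.30 with free Dox, and 7.61, 8.50, 7.59 and 7.69 with CP-Dox. In 3 of the CP-Dox tumours it was below every PBS value, and CP-Dox tumour 2 sat among the controls. The log2 fold change of -0.56 ± 0.24 did not pass (limma, adjusted p = 0.190). Without CP-Dox tumour 2 it was -0.78 (adjusted p = 0.0225).

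Paics makes a bifunctional enzyme of the middle of the purine route and is the neighbour of Ppat in the genome, transcribed in the opposite direction. It read 13.02, 12.96, 12.69 and 12.56 with PBS, 12.94, 12.89, 12.96 and 12.88 with free Dox, and 12.75, 13.16, 12.49 and 12.50 with CP-Dox. The 3 groups overlapped, and the highest value of all was that of CP-Dox tumour 2. Its log2 fold change of -0.08 ± 0.15 had a 95% interval from -0.41 to 0.24 and so leaves room for a loss of up to that size. The difference Ppat minus Paics within each array was -4.70 to -4.19 in the PBS tumours, -4.85 to -4.27 after free Dox and -5.14 to -4.66 after CP-Dox, so that the groups overlapped.

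Cad makes the large protein that carries the first 3 steps of pyrimidine synthesis. Its values were 8.49, 9.04, 8.51 and 7.52 with PBS, 8.44, 8.73, 8.09 and 7.71 with free Dox, and 7.49, 7.93, 7.56 and 7.53 with CP-Dox. One control, PBS tumour 4, was as low as the CP-Dox tumours. The log2 fold change was the most negative of the 8 genes, -0.76 ± 0.29, and had the largest standard error (limma, adjusted p = 0.147). It was -1.05 without PBS tumour 4 (adjusted p = 0.0349).

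Dhodh makes the mitochondrial dehydrogenase that oxidises dihydroorotate to orotate and passes the electrons to ubiquinone. The PBS tumours read 7.80, 7.63, 7.63 and 7.82, the free Dox tumours 7.77, 7.32, 7.83 and 7.66, and the CP-Dox tumours 7.06, 7.16, 7.30 and 7.33. CP-Dox values were below all PBS values and overlapped with free Dox through free Dox tumour 2. Dhodh fell by 0.51 ± 0.12 (limma, adjusted p = 0.0303). It kept that call in 7 of 12 fits without 1 tumour and lost it without PBS tumour 1, 3 or 4 or CP-Dox tumour 1 or 3, with an adjusted p of at most 0.0951.

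Umps makes the enzyme that turns orotate into uridine monophosphate. The brightest probe set gave 9.10, 9.35, 9.21 and 9.16 with PBS, 9.0, 8.74, 9.08 and 9.24 with free Dox, and 8.86, 8.58, 8.83 and 9.13 with CP-Dox. PBS and CP-Dox overlapped only through CP-Dox tumour 4, and the log2 fold change was -0.36 ± 0.13 (limma, adjusted p = 0.131). Ctps, the synthase that makes cytidine triphosphate from uridine triphosphate, read 10.76, 10.84, 10.91 and 10.40 with PBS, 10.76, 10.92, 10.73 and 10.95 with free Dox, and 10.30, 10.74, 10.08 and 10.66 with CP-Dox. Groups overlapped, with a log2 fold change of -0.28 ± 0.16 against PBS (limma, adjusted p = 0.288).

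For free Dox against PBS, 0 of the 8 genes passed, as did 0% of all genes, and 0 of the 8 had an unadjusted p under 0.05, against 2.54% of all genes lower and 1.96% higher at that level. The log2 fold changes ran from -0.19 for Umps to 0.11 for Ctps, 6 were below 0 and the median was -0.07. All 8 sets of values overlapped with PBS, while 2.13% of all genes were lower without overlap. The 95% intervals, which show what loss the data allow, reached down to -0.27 for Adsl, -0.33 for Dhodh and -0.44 for Gart. For Cad the interval ran from -0.79 to 0.49, the widest of the 8.

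CP-Dox against free Dox sets the same drug with and without the carrier side by side. Since no dose is stated and no group had the carrier alone, the carrier and any difference in dose cannot be told apart. No gene of the 8 passed, while 0.169% of all genes fell. All 8 log2 fold changes were negative, with a median of -0.44, and 5 had an unadjusted p under 0.05, against 9.39% of all genes lower at that level. Gart and Adsl were lower in every CP-Dox tumour than in every free Dox tumour, which 6.34% of all genes were. Dhodh had a log2 fold change of -0.44 and Cad of -0.61 (limma, adjusted p = 0.136 and 0.328).

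**Figure D2:**
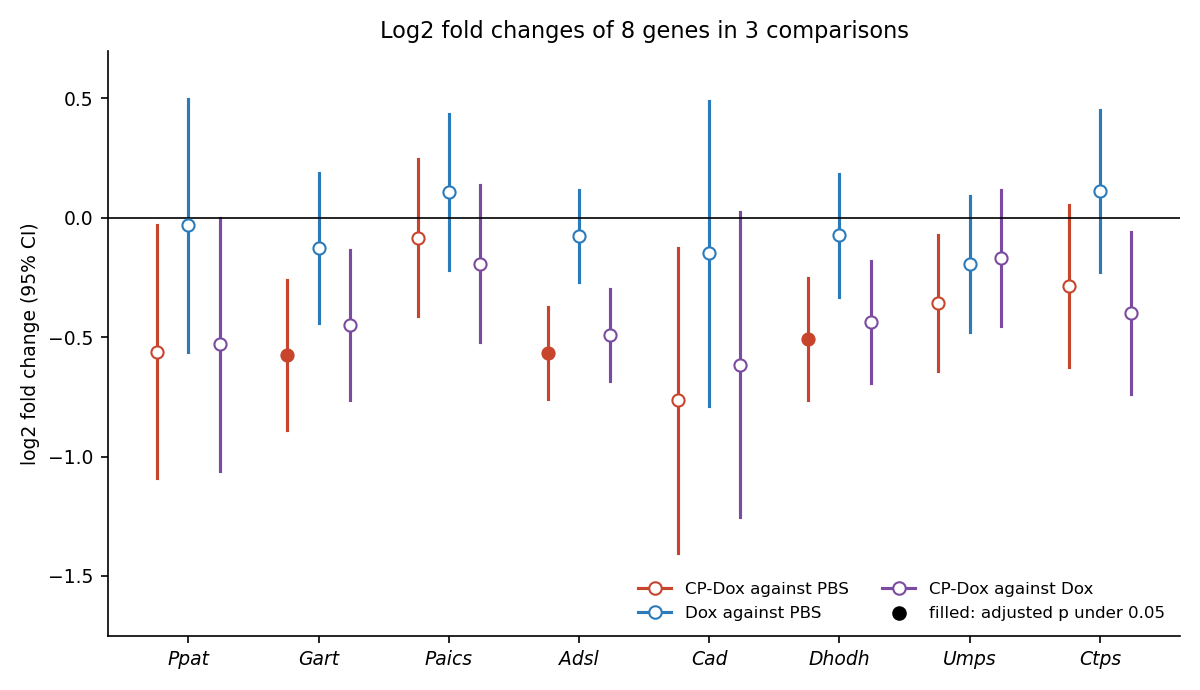
Log2 fold changes with 95% intervals of the 8 genes in CP-Dox against PBS, free Dox against PBS and CP-Dox against free Dox, filled where the adjusted p was under 0.05. Only Gart, Adsl and Dhodh in CP-Dox against PBS are filled, and the free Dox points lie near 0, between -0.19 and 0.11.

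An exact permutation test of 4 against 4 tumours has 70 arrangements and a smallest 2-sided p of 0.0286. This smallest value was reached in 5 of 24 such tests, those of Gart, Adsl and Dhodh for CP-Dox against PBS and of Gart and Adsl for CP-Dox against free Dox. In CP-Dox against PBS, 3 of 8 genes were lower without overlap, as were 7.75% of all genes.

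Probe sets of the same gene read different stretches of its transcripts, and a suffix _s or _x marks those that may also match sequences of other genes. Of the 17 probe sets, 17 had a negative log2 fold change in CP-Dox against PBS and 7 fell, in a fit over all 20380 probe sets, of which 3.21% fell. The 7 were also lower without overlap, as were 7.60% of all probe sets. They belonged to Gart, with 3 of 3 probe sets, Adsl with its only one, Umps with 2 of 3 and Dhodh with 1 of 2. The Gart probe set 1424436_at had 9.48, 9.42, 9.75 and 9.51 with PBS, 9.40, 9.24, 9.45 and 9.42 with free Dox, and 8.38, 8.84, 8.32 and 8.68 with CP-Dox. It fell by 0.99 ± 0.12 against PBS (limma, adjusted p = 0.00276), to 50.4% of the PBS signal. It was also the one member probe set of 17 that passed against free Dox, at -0.83 ± 0.12 (limma, adjusted p = 0.0371), where 0.137% of all probe sets fell. The brightest Gart probe set thus showed the smallest change of the 3, and the remaining one, 1424435_a_at, gave -0.73 ± 0.12 (adjusted p = 0.00701).

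For Umps the choice of probe set decided the call. Probe set 1451445_at had 5.96, 6.12, 6.09 and 5.96 with PBS, 5.44, 5.75, 5.73 and 5.75 with free Dox, and 5.16, 5.56, 5.33 and 5.54 with CP-Dox. It fell by 0.64 ± 0.11 with CP-Dox (limma, adjusted p = 0.00898). It was also the one member probe set with all free Dox values below all PBS values, which 2.10% of probe sets showed, although 0 of 17 passed in that comparison. This was the dimmest of the 17, with no value above 6.12, while the other Umps probe sets read 8.13 or more. Whether so low a signal lies above background was not tested. Probe set 1434859_at had 8.64 to 9.0 with PBS, 8.80 to 8.95 with free Dox and 8.13 to 8.55 with CP-Dox, and fell by 0.49 ± 0.12 (limma, adjusted p = 0.0375). Over the 12 arrays, pairs of Umps probe sets correlated at 0.53 to 0.74, those of Gart at 0.77 to 0.96 and the pair of Cad at 0.97. Both Ppat probe sets, both Cad probe sets and all 3 Paics probe sets failed to pass. The Dhodh probe set that fell, 1417582_s_at, carries the suffix _s, as do the brightest of Ppat and Cad, 1452831_s_at and 1452830_s_at. The second Dhodh probe set, 1417581_at, without that suffix, gave -0.38 (limma, adjusted p = 0.116), and its PBS and CP-Dox values overlapped.

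**Figure D3:**
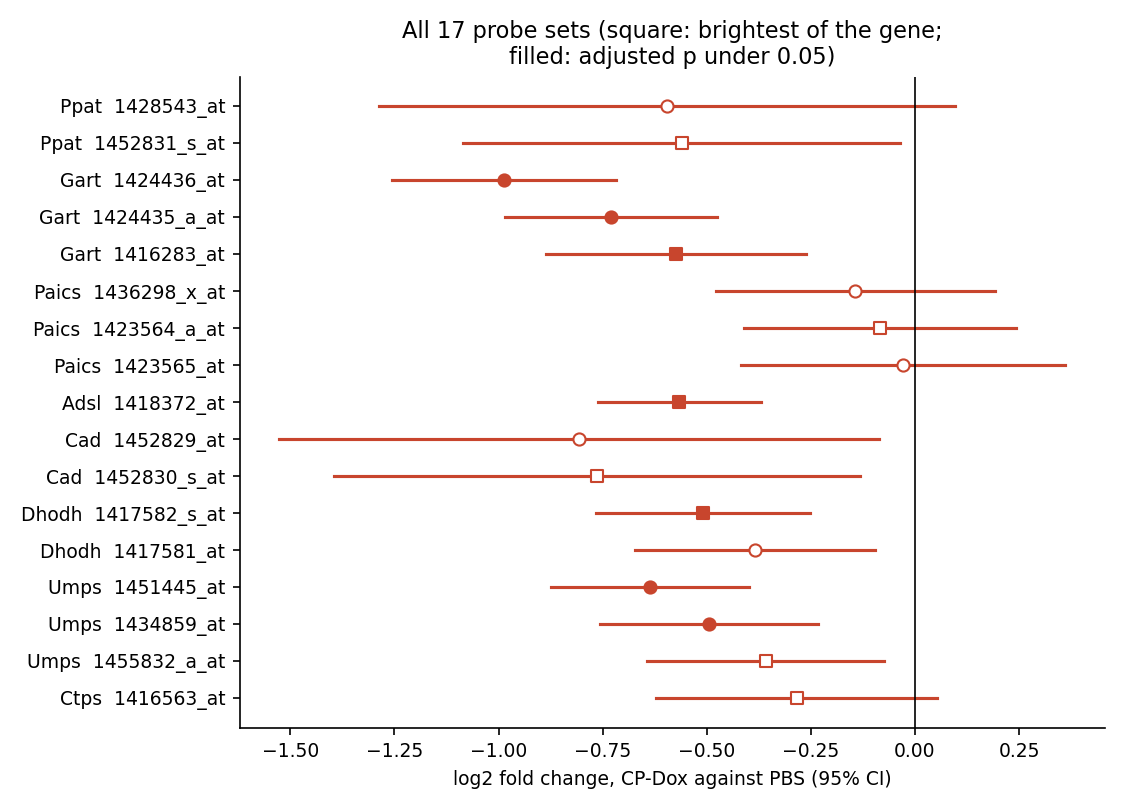
Log2 fold change of CP-Dox against PBS with its 95% interval for each of 17 probe sets. Squares are the brightest probe set of a gene, and filled symbols passed. All 17 points lie left of 0, from -0.99 for Gart 1424436_at to -0.03 for a Paics probe set.

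Averaged over the 8 genes and set against the PBS mean, the CP-Dox tumours were at -0.56, -0.32, -0.56 and -0.41. PBS tumours were at 0.07, 0.20, 0.03 and -0.30, and free Dox tumours at -0.02, -0.05, -0.03 and -0.11. The lowest control, PBS tumour 4, came close to CP-Dox tumour 2 without reaching it. The order of the tumours by proliferation markers was another one. All 17 had a negative log2 fold change in CP-Dox against PBS, with a median of -0.72. Pcna and Ccna2 fell, beside 3.23% of all genes. The average of the 17 markers was -0.38, -1.64, -0.42 and -0.29 in the CP-Dox tumours, -0.09, -0.46, -0.12 and -0.23 after free Dox, and 0.02, 0.20, 0.05 and -0.27 with PBS. CP-Dox tumours 1, 3 and 4 lay below every PBS tumour, tumour 4 narrowly. They also lay below free Dox tumours 1, 3 and 4, and above free Dox tumour 2. CP-Dox tumour 2, the lowest for these markers, had the highest average of the nucleotide synthesis genes among CP-Dox tumours. With the proliferation average as a covariate, Adsl had a log2 fold change of -0.43 (limma, adjusted p = 0.0123), and Gart and Dhodh had -0.43 and -0.44 and no longer passed (adjusted p = 0.114 and 0.0654). Ppat then passed, at -0.90 (adjusted p = 0.0443), Umps was at -0.13, and 8.23% of all genes fell. The proliferation average was itself lower with CP-Dox, at a mean of -0.68, so this fit cannot separate proliferation from treatment. The part of proliferation in the changes of the 8 genes was not tested.

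The skin markers were high in the pair of CP-Dox tumours with the lowest average of the 8 genes, tumours 1 and 3. Without both of these tumours, an alternative chosen after seeing the data, the log2 fold changes were -0.57 for Adsl, -0.54 for Gart and -0.48 for Dhodh. None of the 3 then passed (limma, adjusted p = 0.0951, 0.286 and 0.240), and 0.0161% of all genes fell in that fit. Umps and Cad were at -0.35 and -0.66, but Ppat shrank to -0.31, Ctps to -0.03 and Paics to 0.02. With the skin marker average as a covariate the values were -0.57, -0.55 and -0.50, and again none passed (limma, adjusted p = 0.0514, 0.200 and 0.157), while 0.379% of all genes fell. Ppat was then at -0.34 and Ctps at -0.03. Of 10 fibroblast markers Dcn and Thy1 rose with CP-Dox, by 0.52 ± 0.11 and 0.74 ± 0.19 (limma, adjusted p = 0.0199 and 0.0461), and their list average was 0.36, 0.42, 0.68 and 0.20 in the CP-Dox tumours, -0.18 to 0.12 with PBS and -0.25 to 0.28 with free Dox. Thy1 is also in the T cell list. Of 10 markers of colon epithelium Cdh1 alone rose, by 1.26 ± 0.33 (limma, adjusted p = 0.0483). In that list 4 log2 fold changes were below 0 and the median was 0.01. The list average was 0.18, 0.62, 0.13 and -0.38 in the CP-Dox tumours, -0.18 to 0.15 with PBS and -0.24 to 0.31 with free Dox. Over all genes, 2.35% rose with CP-Dox against PBS. The part of fibroblasts and epithelium in the changes of the 8 genes was not tested.

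**Figure D4:**
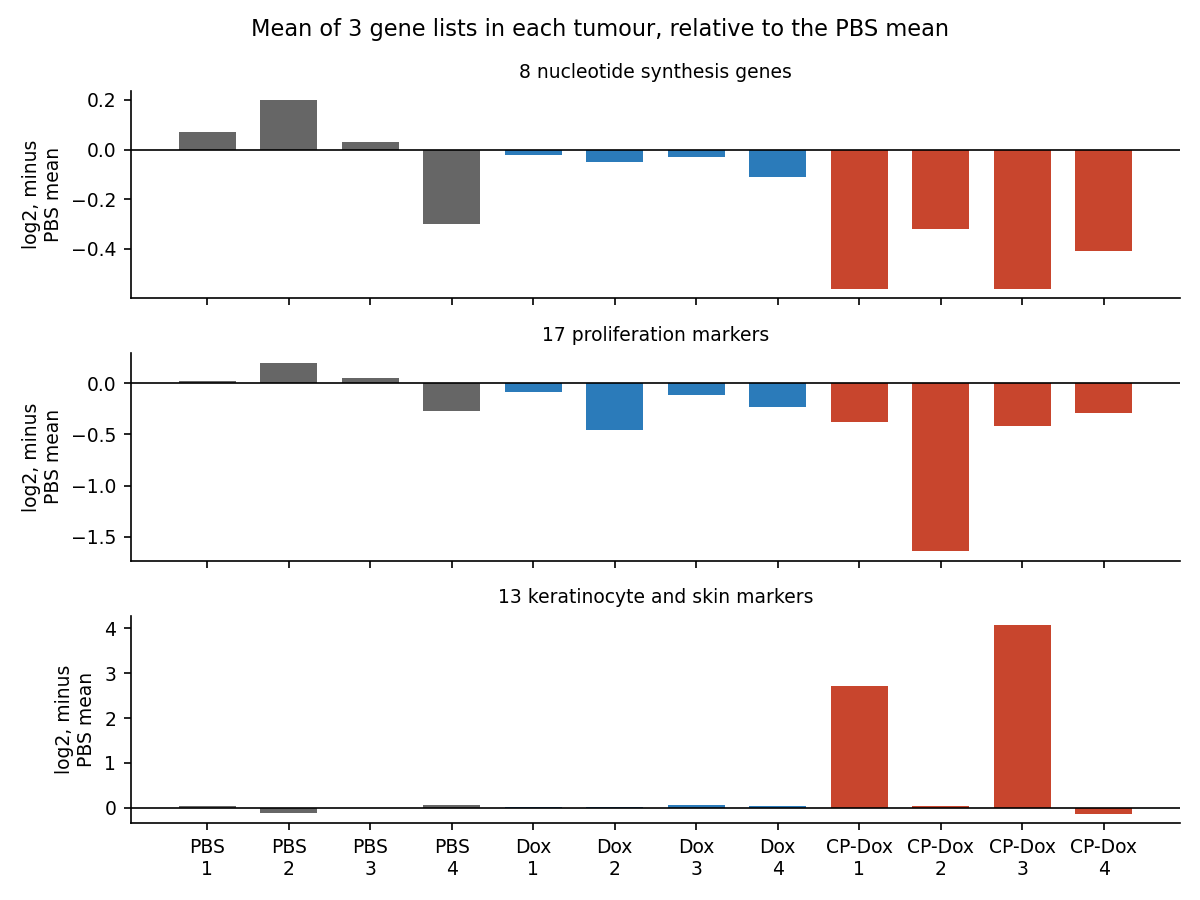
Mean of the 8 nucleotide synthesis genes, of 17 proliferation markers and of 13 keratinocyte and skin markers in each tumour, in log2 units minus the PBS mean. The CP-Dox tumours lie between -0.56 and -0.32 in the upper panel, CP-Dox tumour 2 alone is at -1.64 in the middle panel, and CP-Dox tumours 1 and 3 reach 2.72 and 4.07 in the lower panel.

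Among 28 pairs of the 8 genes, the correlation over the 12 arrays was highest for Gart with Adsl, at 0.90, and then for Adsl with Dhodh, at 0.87. Gart with Cad gave 0.84 and Paics with Ppat 0.81. The lowest was -0.20, for Paics with Umps. Umps was also weakly related to Ppat, at 0.10, and to Cad, at 0.21. These values describe 12 arrays that include the group differences.

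The steps around the described enzymes were covered by other lists. Of 12 measured further enzymes of de novo synthesis (of 15 listed, the rest not analysed here), 3 fell and 1 rose in CP-Dox against PBS, with a median of -0.08. Over all genes, 3.23% fell and 2.35% rose. Prps1, a synthetase that makes the activated ribose phosphate used by Ppat and Umps, went from 9.53 ± 0.11 (SD, n = 4) to 8.96 ± 0.08, a change of -0.56 ± 0.08 (limma, adjusted p = 0.00460). Nme1, which makes nucleoside triphosphates from diphosphates, fell by 0.71 ± 0.11 (adjusted p = 0.00562), and Guk1, the guanylate kinase, by 0.50 ± 0.12 (adjusted p = 0.0312). Ctps2, the second cytidine triphosphate synthase, rose by 0.48 ± 0.07 (adjusted p = 0.00523), from 8.94 ± 0.01 with PBS and 9.05 ± 0.08 with free Dox to 9.42 ± 0.09 with CP-Dox. It rose while the point estimate for Ctps was negative, and the difference between the 2 changes was not tested.

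The purine ring takes carbons from glycine and from formyl folate. The list of formyl and glycine suppliers also holds Aldh1l1 and Gldc, which use up formyl folate and glycine. All 9 of its measured genes (of 11 listed, the rest not analysed here) changed in CP-Dox against PBS, 7 down and 2 up, with a median of -0.999. Over all genes, 5.58% changed, 3.23% down and 2.35% up. Phgdh, the first enzyme of serine synthesis, went from 11.26 ± 0.07 (SD, n = 4) to 10.11 ± 0.16, a change of -1.15 ± 0.09 (limma, adjusted p = 0.000409). Shmt2 and Shmt1, the mitochondrial and cytosolic enzymes that split serine into glycine and a folate carbon, fell by 1.19 and 1.10 (adjusted p = 0.00483 and 0.0134). Mthfd2 and Mthfd1, which carry the folate carbon to formyl folate, fell by 1.20 and 0.61 (adjusted p = 0.0225 and 0.0205). Aldh1l1, which burns formyl folate to carbon dioxide, rose by 1.02 ± 0.11 (adjusted p = 0.00259), from 5.09 with PBS to 6.10 with CP-Dox. Gldc, of the glycine cleavage system, rose by 1.17 ± 0.28 (adjusted p = 0.0368), from 6.45 to 7.62. The PBS signals of both were lower than those of the 7 genes that fell. Gldc is outside the 6 lowest p values of its list and was named after its values were seen. Against free Dox, Phgdh and Shmt2 fell, by 0.92 and 1.02 (limma, adjusted p = 0.00433 and 0.0499), beside 0.169% of all genes. The count of 9 was 5 without PBS tumour 3 and 4 without CP-Dox tumour 1 or CP-Dox tumour 3. Of all genes, 2.19%, 1.98% and 1.73% changed in those fits, in that order.

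Donors of amino groups and ribose, salvage and breakdown each held 1 or 2 genes that passed in CP-Dox against PBS, beside 3.23% of all genes that fell and 2.35% that rose. Among 11 measured suppliers of amino groups and ribose (of 14), 1 fell, Rpia, which makes ribose phosphate, by 0.37 ± 0.08 (limma, adjusted p = 0.0266), and the list median was -0.05. In salvage, 2 of 14 fell, and as many measured genes were above 0 as below. Tk1, the thymidine kinase of dividing cells, fell by 1.39 ± 0.30 (adjusted p = 0.0248), and Aprt, which reclaims adenine, fell by 0.45 ± 0.10 (adjusted p = 0.0268). In breakdown, 2 of 13 (of 14 listed) rose, with a median of 0.06: Xdh, which makes uric acid, by 1.43 ± 0.30 (adjusted p = 0.0224), and Ampd3, an AMP deaminase, by 0.82 ± 0.22 (adjusted p = 0.0476). All 3 counts were 0 without CP-Dox tumour 1 or CP-Dox tumour 3. The ribose and salvage counts were also 0 without PBS tumour 3 or PBS tumour 4, and without CP-Dox tumour 2 the counts were 5, 6 and 4. The share of all genes that changed moved too. It was 1.98% and 1.73% without CP-Dox tumour 1 or 3, and 2.19% and 3.93% without PBS tumour 3 or 4. Without CP-Dox tumour 2 it was 19.1%. Free Dox against PBS gave 0 calls by limma in each of these 5 lists. At an unadjusted p under 0.05 there were 3 lower genes in them, Guk1 at -0.30, Aprt at -0.24 and Phgdh at -0.23, and 2 higher, Aldh1l1 at 0.42 and Gldc at 0.68, each with an adjusted p of 0.995. Over all genes, 2.54% were lower and 1.96% higher at that level.

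**Figure D5:**
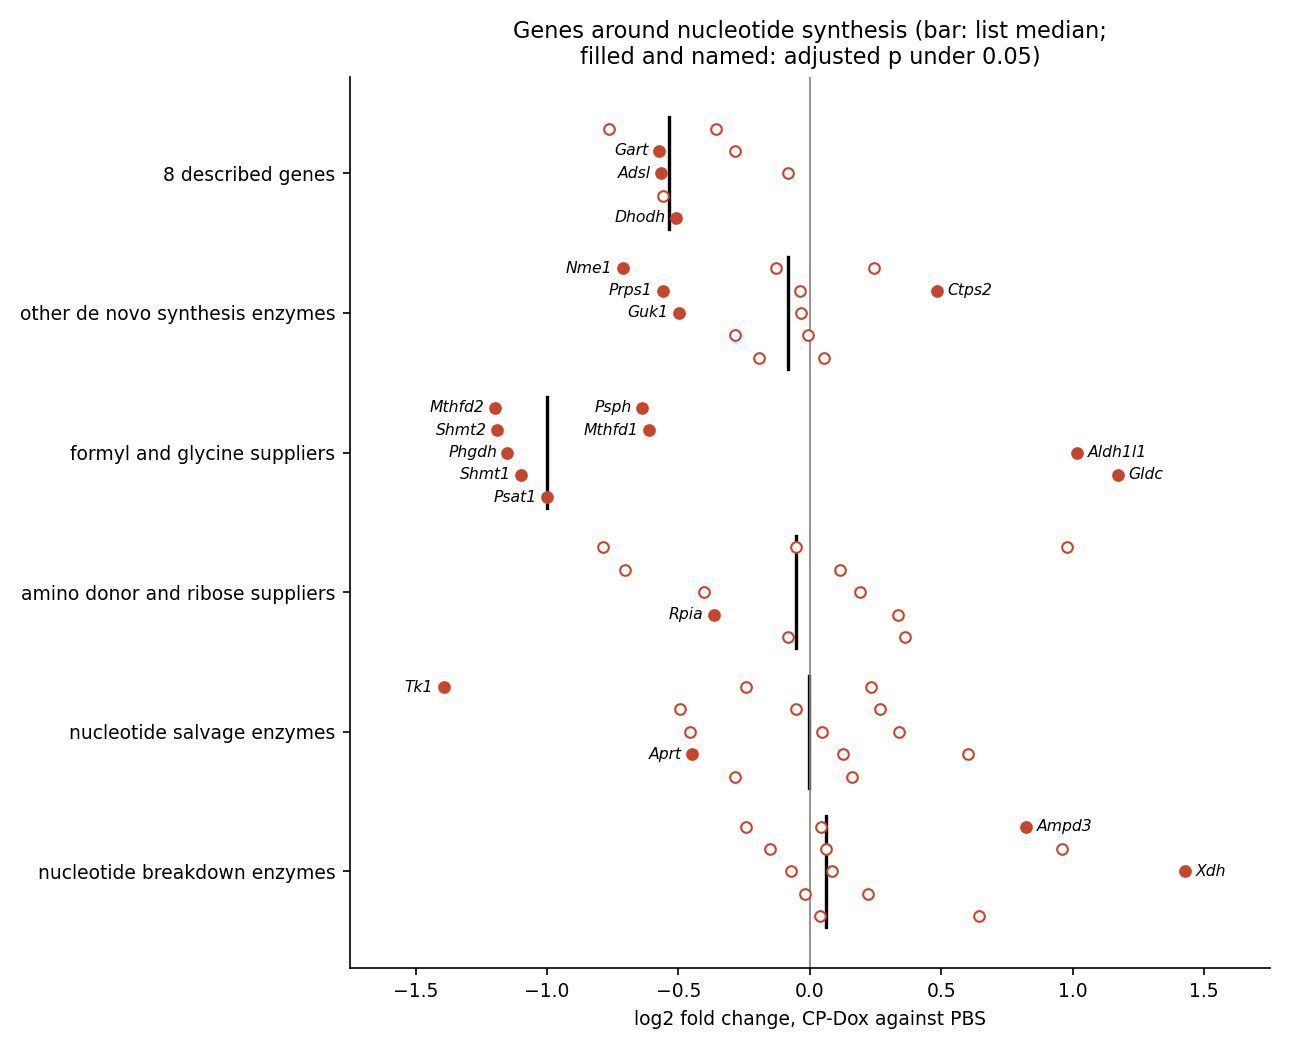
Log2 fold change of CP-Dox against PBS for every measured gene of the described set and of 5 lists around it. Points are genes, filled and named where the adjusted p was under 0.05, and black bars are list medians. The median of the formyl and glycine suppliers, -0.999, and that of the 8 described genes, -0.53, lie left of the others, which are between -0.08 and 0.06.

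The genes whose values over the 12 arrays were most like the mean z-score of the 8 genes were Xpo1 (r = 0.97), Ruvbl1 (0.97), Nup107 (0.97), Prps1 (0.96), Hnrnpr (0.96), Shmt2 (0.96), Stag1 (0.96) and Smyd5 (0.96). The most opposite were Anxa8 (-0.96), Tmem9b (-0.96) and Stx4a (-0.96). Anxa8 was 3.27 higher in CP-Dox than in PBS tumours. These are the extremes of 12393 genes ranked over 12 arrays, and are given as a description.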

How the data were processed

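RNA of 12 whole tumours was hybridised to Affymetrix arrays. The authors deposited log2 values made with RMA, and Partek was also used, per the submitters' processing notes, which give no versions. The table has 22690 probe sets, and symbols came from the platform annotation. Left out were 64 control probe sets, 691 with several symbols and 1555 with none. The brightest probe set of each of 12393 genes was kept by its mean over all arrays. Group means were fitted with limma 3.58.1 in R 4.3.3 (lmFit, eBayes, Benjamini-Hochberg), and a parallel fit used all 20380 single-symbol probe sets. Array number limits the precision. Each array is labelled as its own mouse. Named were all listed genes, up to 6 genes per list with the lowest p among those past 0.05, and the 8 most alike and 3 most opposite genes. The genes, lists and tests were chosen with earlier results of these data known. Alternatives changed the normalization, probe sets, variance model, covariates, threshold and tumours used. No scan date was used.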

Additional observations from a re-analysis of the deposited data

Results flagged for a closer look

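In each group of 4 tumours, the highest or lowest value was compared with the others by its gap to the nearest value over the whole range, and set against the 95% critical value of Dixon's test. Of the 24 groups tested, 8 genes in 3 treatments, 2 were marked. Both were among the 8 CP-Dox groups, through CP-Dox tumour 2. Ppat was 8.50 there, against 7.69 in the nearest CP-Dox tumour, a ratio of 0.886. Cad was 7.93, against 7.56, a ratio of 0.853. Chance marks about 5% of groups in this way. Ppat and Cad correlated at 0.78 over the 12 arrays, so their 2 marks are not independent.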

How the results depend on the processing

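The log2 fold changes of Gart, Ppat, Adsl, Cad, Umps, Dhodh and Ctps in CP-Dox against PBS were negative under all 26 alternatives, and Adsl passed in 24 of them. Several alternatives could move the p values but not these log2 fold changes, so that their signs were fixed in advance. They were the fits without a free Dox tumour, with only the 2 groups, with the replicate block and with the dimmest genes left out. The fits with each probe set on its own and with another variance model were also of this kind. The count of 3 genes that passed became 6 with array weights, where 10.97% of all genes fell. It was 4 with the mean of all probe sets, where 3.53% fell. It was 2 with only the 2 groups fitted and with the muscle or proliferation covariate. There 0.912%, 2.99% and 8.23% of all genes fell. At an adjusted p under 0.01 it was 1, where 0.750% fell. With the skin marker covariate it was 0, where 0.379% fell. It was also 0, as chosen after seeing the data, without CP-Dox tumours 1 and 3, where 0.0161% fell. The sources of these shifts were not tested. In CP-Dox against free Dox, the count of 0 became 1 with another quantile normalization, with centring on the array median, with the dimmest 40% of genes left out and with the proliferation covariate. Of the genes fitted, 0.290%, 0.266%, 0.471% and 4.53% fell there, in that order. The count became 2 with the mean of all probe sets, where 0.226% fell, and 6 with array weights, where 8.84% of all genes fell. With another quantile normalization the breakdown count of CP-Dox against PBS was 1, as was the count of further de novo enzymes against free Dox. Over all genes, 5.87% and 0.371% changed in these comparisons under that setting. Without 1 tumour at a time, counts for CP-Dox against PBS ranged from 1 to 4 for the described genes, 3 to 5 for further de novo enzymes, 0 to 6 for salvage, 0 to 4 for breakdown, 4 to 9 for formyl and glycine suppliers, 0 to 5 for amino donors and ribose and 0 to 2 for Myc and Atf4. Against free Dox they ranged from 0 to 2, 0 to 4, 0 to 3, 0 to 3, 1 to 7, 0 to 2 and 0 to 0 in the same order, and for free Dox against PBS all were 0. The share of all genes that changed in the same fits ranged from 1.73% to 19.1% for CP-Dox against PBS. It ranged from 0.00807% to 9.28% against free Dox and from 0% to 0.0161% for free Dox against PBS.

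Signs turned for small values. Paics in CP-Dox against PBS was 0.0313 with the skin marker covariate and 0.0239 without CP-Dox tumours 1 and 3. In free Dox against PBS, Ppat was 0.111, 0.0419 and 0.0655 without PBS tumour 1, PBS tumour 2 or free Dox tumour 1, Cad was 0.0670 and 0.0269 without PBS tumour 2 or free Dox tumour 4, and Dhodh was 0.00532 with array weights and 0.0360 without free Dox tumour 2. Without 1 tumour at a time the lowest of these were -0.21 for Ppat, -0.44 for Cad and -0.14 for Dhodh. Tumours share replicate numbers across groups, but neither the labels nor the values settle that the numbers pair them: deviations of 12 same-numbered pairs correlated at -0.31 to 0.50, 8 of them over 0.1, and 6 of 12 arrays correlated best with their own number. With the replicate number as a block, 3 genes passed in CP-Dox against PBS (Adsl, Cad and Dhodh, with Gart at an adjusted p of 0.0522 and Cad at 0.0347), 0 in both other comparisons, 4 amino donor and ribose suppliers in CP-Dox against PBS and 1 formyl and glycine supplier against free Dox. Over all genes, 8.03% changed with the block in CP-Dox against PBS and 0.0646% against free Dox.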

Other observations

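Myc, a transcription factor known to act on nucleotide synthesis genes, was 10.05 ± 0.39 (SD, n = 4) with PBS, 9.72 ± 0.57 with free Dox and 9.16 ± 0.46 with CP-Dox. Its log2 fold change of -0.89 ± 0.30 in CP-Dox against PBS did not pass (limma, adjusted p = 0.112). Of 8 measured genes of the Myc network with Atf4, 0 passed in CP-Dox against PBS in the limma fit, against 5.58% of all genes. At an unadjusted p under 0.05, 1 of the 8 was lower and 2 were higher, against 13.3% and 10.2% of all genes.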
